A study of Mus musculus with 7 samples.

Results

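The 9 genes described here are Trim56 together with 8 genes that sense nucleic acids in the cytosol or pass that signal on. They were chosen by name, as sensors of DNA or RNA, their adaptors, and the ubiquitin ligases that act on them. The choice was made with earlier results of these data known. All 9 of the 9 names were found among the 16760 genes of the deposited table. RNA had been sequenced from CD150-negative mouse cells labelled as HSC (haematopoietic stem cell), in 4 wild-type (WT) libraries and 3 libraries with a deletion at band 5G2 of chromosome 5 (5G2del), all on strain C57/B6; the region corresponds to human band 7q22, which is often lost in myeloid malignancies. The labels name no allele, no treatment and no age, and give neither the ends of the deletion nor whether 1 or both copies carry it. No source used here says that each library is a separate animal, and p-values therefore rest on a spread between libraries that could be in part technical. Libraries are called WT-A to WT-D and 5G2del-A to 5G2del-C, because the columns show a library's group but not its sample number.

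Cells detect foreign or misplaced nucleic acid with a small set of receptors. In the RNA arm the helicases RIG-I (Ddx58) and MDA5 (Ifih1) bind double-stranded RNA and engage MAVS on mitochondria, with LGP2 (Dhx58) as a further helicase that lacks the signalling domains and tunes the other two. In the DNA arm the enzyme cGAS makes a cyclic dinucleotide that activates STING (Tmem173) on the endoplasmic reticulum. Both arms meet at the kinase TBK1, which phosphorylates the transcription factor IRF3 and so switches on type I interferon. Trim25 is the classical ubiquitin ligase for RIG-I, and Trim56 is a ligase described for STING and cGAS. In blood stem cells, interferon is known to drive dormant cells into cycle, and the helicase genes are themselves induced by it.

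Trim56 was the member with the clearest separation between the groups, at about 0.48 of its WT level in 5G2del. Dhx58 and Ifih1 also had lower means in 5G2del, with intervals below 0. The intervals of Trim25, Ddx58, the adaptors, the kinase and the transcription factor spanned 0. Of the 9 members, 6 had a lower mean in 5G2del, where 46.7% of all 16760 genes did; with mitochondrially encoded genes out of the library totals it was 7 members and 58.9% of all genes. The members' median difference was -0.11 on the log2 scale, against 0.03 for all genes. An unadjusted p under 0.05 with a lower mean was found for 3 members (Trim56, Dhx58 and Ifih1), against 2.24% of all genes, and for 0 members with a higher mean, against 1.68%. After Benjamini-Hochberg adjustment over all genes, limma-trend called 0 members and 0% of all genes, and the authors' deposited table likewise held 0%. In that table the same 3 members had an unadjusted p under 0.05, against 3.73% of all genes in either direction. Since the members were chosen with earlier results of these data known, these counts describe them and are not independent support. A difference of -1.0 or lower on the log2 scale was reached by Trim56 and Dhx58, and by 0.454% of the 10358 better expressed genes (mean log2 CPM over 2). Differences throughout are 5G2del minus WT in log2 CPM, the log2 of counts scaled to a size per library that was not its plain total. Each has the SE of limma-trend, a linear model that draws each gene's variance towards a trend with expression.

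**Figure D1:**
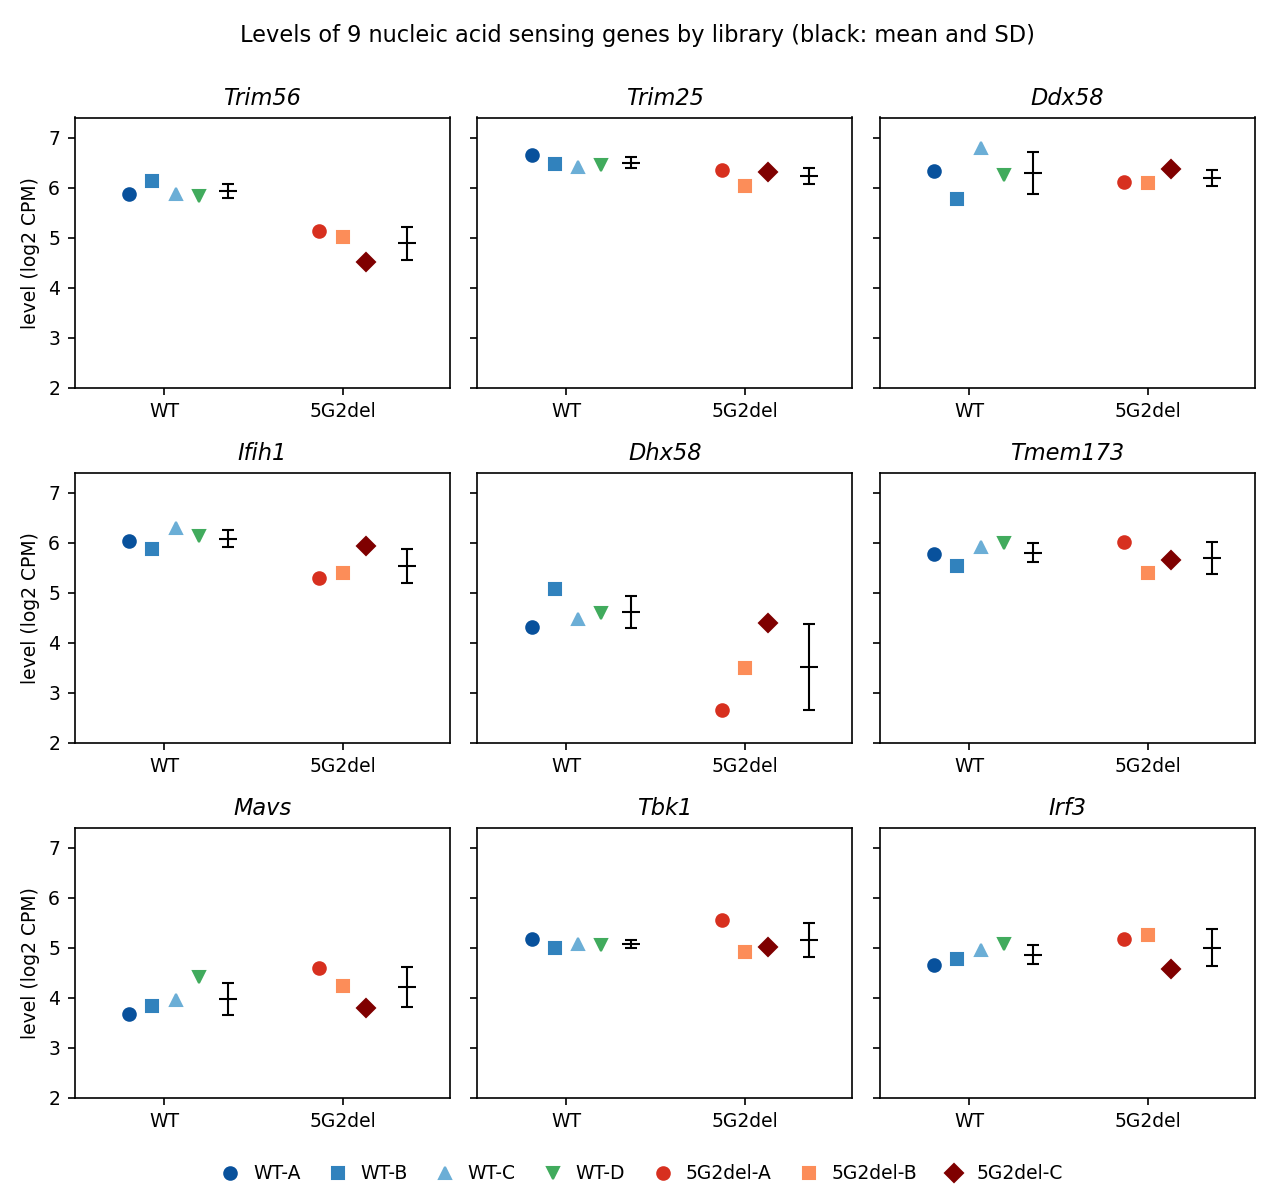
Levels of the 9 genes in log2 CPM (y axis) in each WT and 5G2del library (points), with the group mean and SD in black. The 3 Trim56 points of 5G2del, 4.51 to 5.14, lie below the 4 WT points, 5.84 to 6.14; for Dhx58 the 5G2del points run from 2.66 to 4.39.

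Trim56 (ENSMUSG00000043279) is protein-coding and lies on the minus strand of mm10 chr5:137105644-137116209. This is the chromosome of the deletion, and the labels do not give whether the deletion takes in Trim56. The other 8 members lie on other chromosomes. Its levels were 5.14, 5.00 and 4.51 log2 CPM from 5G2del-A to 5G2del-C. In WT-A, WT-B, WT-C and WT-D they were 5.88, 6.14, 5.86 and 5.84. The groups were apart by 0.70 on the log2 scale between the highest 5G2del and the lowest WT library, with 5G2del-C lowest of all. Behind these levels stood 937 to 3282 expected counts per library, so counting error was small beside the spread between libraries. Group means were 4.88 ± 0.33 (SD, n = 3) in 5G2del and 5.93 ± 0.14 (SD, n = 4) in WT. The difference was -1.05 ± 0.19, a ratio to WT of 0.484 (95% confidence interval 0.362 to 0.647; limma-trend unadjusted p = 0.000183, adjusted p = 0.874). In the authors' deposited table Trim56 had the lowest p-value of all 16760 genes (0.000171), with an adjusted p-value of 0.990. In limma-trend it stood second.

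Trim25 (ENSMUSG00000000275), on chr11:88999376-89020293, is the ligase of RIG-I. Its 5G2del-A to 5G2del-C levels were 6.34, 6.04 and 6.30 log2 CPM, and those of WT were 6.65, 6.48, 6.42 and 6.44 from WT-A to WT-D. The groups did not overlap, but by a gap of 0.08 on the log2 scale, and the difference was -0.27 ± 0.15 (limma-trend unadjusted p = 0.0994, adjusted p = 0.989). The ratio to WT was 0.830, with a 95% confidence interval of 0.660 to 1.04, and without 5G2del-B the difference was -0.18. Trim56 and Trim25 were the 2 members whose groups did not overlap with 5G2del lower, against 2.78% of all genes, and 0 members had 5G2del wholly above WT, against 2.92%.

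Trim56 was further below Trim25 in 5G2del than in WT. The within-library difference of Trim56 minus Trim25 was -1.20, -1.03 and -1.80 in 5G2del-A to 5G2del-C, and -0.77, -0.34, -0.56 and -0.60 in WT-A to WT-D. The groups did not overlap, and the means differed by -0.78 (two-sided exact permutation p = 0.0286 over the 35 ways to divide 7 libraries into 3 and 4, the smallest p they can give). Both genes share the libraries and their depth, so a scaling factor per library leaves this comparison as it is. Trim56 alone already separated the groups by 0.70, and the members were chosen with earlier results of these data known. Separation of the difference was therefore close to given, and its p adds little to what Trim56 shows alone.

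Of the RNA helicase genes, Dhx58 and Ifih1 had an unadjusted p under 0.05 and Ddx58 did not; differences between the helicase genes were not tested. Dhx58 (LGP2; ENSMUSG00000017830, chr11:100694884-100704271) was at 2.66, 3.49 and 4.39 log2 CPM from 5G2del-A to 5G2del-C. In WT-A to WT-D it was at 4.31, 5.06, 4.48 and 4.60. 5G2del-C lay within the WT range, just above WT-A, while 5G2del-A and 5G2del-B were below all WT libraries. The difference was -1.10 ± 0.36 (limma-trend unadjusted p = 0.0111, adjusted p = 0.989), a ratio of 0.467 with a 95% confidence interval of 0.269 to 0.810. Without 5G2del-A it was -0.67 (limma-trend unadjusted p = 0.0593), and without 5G2del-C it was -1.54. Counts were the lowest of the members, 265 to 1385 per library.

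Ifih1 (MDA5; ENSMUSG00000026896, chr2:62595798-62646255) was at 5.30, 5.39 and 5.92 log2 CPM in the 3 5G2del libraries in the same order. Its WT levels were 6.04, 5.86, 6.29 and 6.12. Again 5G2del-C was the highest 5G2del library and overlapped WT, here with WT-B. The difference was -0.54 ± 0.19 (limma-trend unadjusted p = 0.0164, adjusted p = 0.989), a ratio of 0.687 with a 95% confidence interval of 0.513 to 0.920. The unadjusted p rose to 0.0768 without 5G2del-A and 0.0663 without 5G2del-B. In these 2 helicase genes 5G2del-C was highest in its group and 5G2del-A lowest, the reverse of Trim56.

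Ddx58 (RIG-I; ENSMUSG00000040296, chr4:40203773-40239828) was at 6.12, 6.09 and 6.38 log2 CPM from 5G2del-A to 5G2del-C and at 6.33, 5.77, 6.79 and 6.26 in WT-A to WT-D. The 3 5G2del libraries fell inside the WT range, which was set by WT-B at the low end and WT-C at the high end. The difference was -0.09 ± 0.22, with a 95% confidence interval of -0.58 to 0.39 on the log2 scale (limma-trend unadjusted p = 0.689). It turned to 0.08 without WT-C and was -0.26 without WT-B.

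The adaptors overlapped between groups. Tmem173 (STING; ENSMUSG00000024349, on chromosome 18) was at 6.02, 5.40 and 5.66 log2 CPM from 5G2del-A to 5G2del-C and at 5.77, 5.54, 5.91 and 5.98 in WT-A to WT-D, a difference of -0.11 ± 0.19 (95% confidence interval -0.53 to 0.31). 5G2del-A was the highest of all libraries and 5G2del-B the lowest, and the sign turned without 5G2del-B (0.04). Mavs (ENSMUSG00000037523, chr2:131234063-131248025) was at 4.59, 4.23 and 3.79 log2 CPM in 5G2del and at 3.67, 3.84, 3.96 and 4.41 in WT. Its difference was 0.24 ± 0.26 (95% confidence interval -0.34 to 0.81), 0.04 without 5G2del-A and 0.44 without 5G2del-C.

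Further down the pathway the intervals were of like width. Tbk1 (ENSMUSG00000020115, chr10:121546455-121586787) was at 5.55, 4.91 and 5.01 log2 CPM from 5G2del-A to 5G2del-C and at 5.17, 4.98, 5.07 and 5.04 in WT-A to WT-D. WT libraries agreed closely (SD 0.08, n = 4), and 5G2del-A alone stood above them; the difference was 0.09 ± 0.19 (95% confidence interval -0.34 to 0.51). Without 5G2del-A it turned to -0.11, and it was -0.03 with mitochondrially encoded genes left out of the library totals. Irf3 (ENSMUSG00000003184, chr7:44997648-45002848) was at 5.18, 5.24 and 4.57 log2 CPM in 5G2del and at 4.65, 4.76, 4.95 and 5.07 in WT, a difference of 0.14 ± 0.21 (95% confidence interval -0.33 to 0.61; 0.02 without 5G2del-B, 0.35 without 5G2del-C). Here too 5G2del-C was the lowest library, as for Trim56 and, within its group, for Mavs. Irf3 overlaps Bcl2l12 on the other strand, and Dhx58 overlaps the antisense gene Dhx58os. Strand is not stated for the counting, so reads of such partners cannot be told apart.

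**Figure D2:**
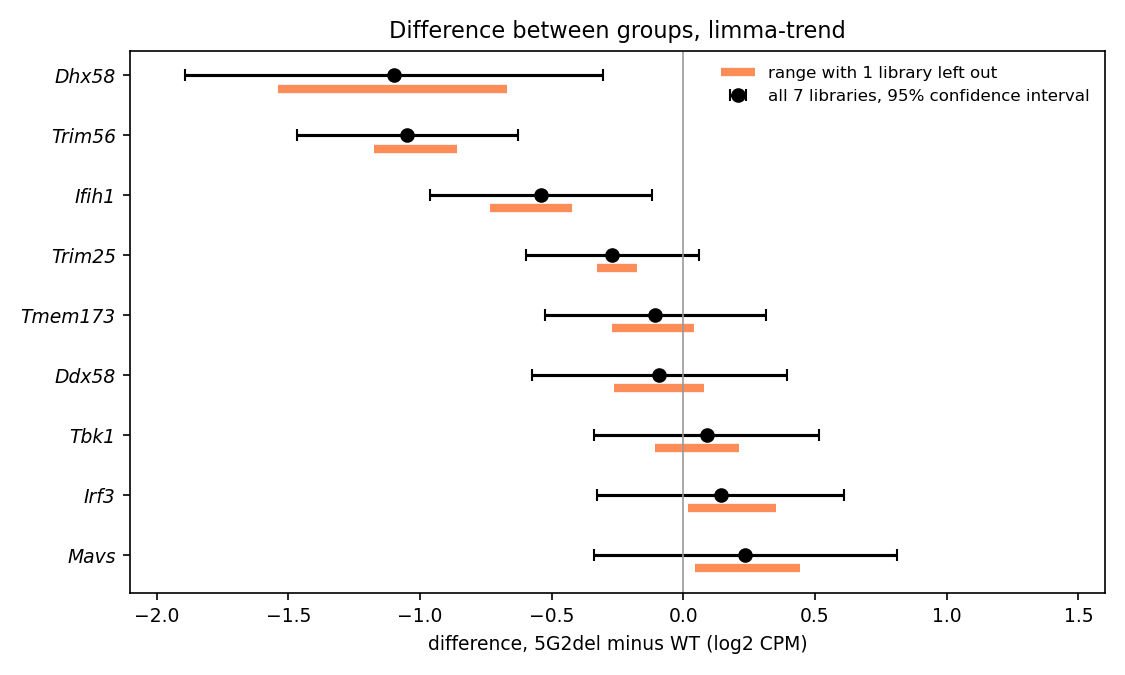
Difference of 5G2del minus WT in log2 CPM (x axis) for each gene, with its 95% confidence interval from limma-trend (black) and the range of the difference when 1 library is left out (orange). The intervals of Dhx58, Trim56 and Ifih1 lie below 0, and those of the other 6 genes span it.

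Between genes, levels can be set side by side only per length, here as log2 CPM per kb of merged exon in the GENCODE M21 annotation. In WT the order of these per-length levels was Tmem173 (4.34 ± 0.20, SD, n = 4), Trim25 (3.97 ± 0.10), Ddx58 (3.47 ± 0.42), Tbk1 (3.10 ± 0.08), Irf3 (3.07 ± 0.19), Ifih1 (3.05 ± 0.18), Dhx58 (2.90 ± 0.32), Trim56 (2.72 ± 0.14) and Mavs (2.23 ± 0.31). The WT ranges of every pair of neighbours in this order overlapped. Tmem173 lay above Trim25 within each of the 7 libraries, while Tbk1 lay above Irf3 in 4 of 7. In 5G2del, Trim56 was last of the 9 at 1.67 ± 0.33 log2 CPM per kb (SD, n = 3), below Dhx58 at 1.80 ± 0.87 and Mavs at 2.46 ± 0.40. The length used is the union of all annotated exons, which for Trim56 is 9.28 kb, and transcripts in these cells may be shorter.

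**Figure D3:**
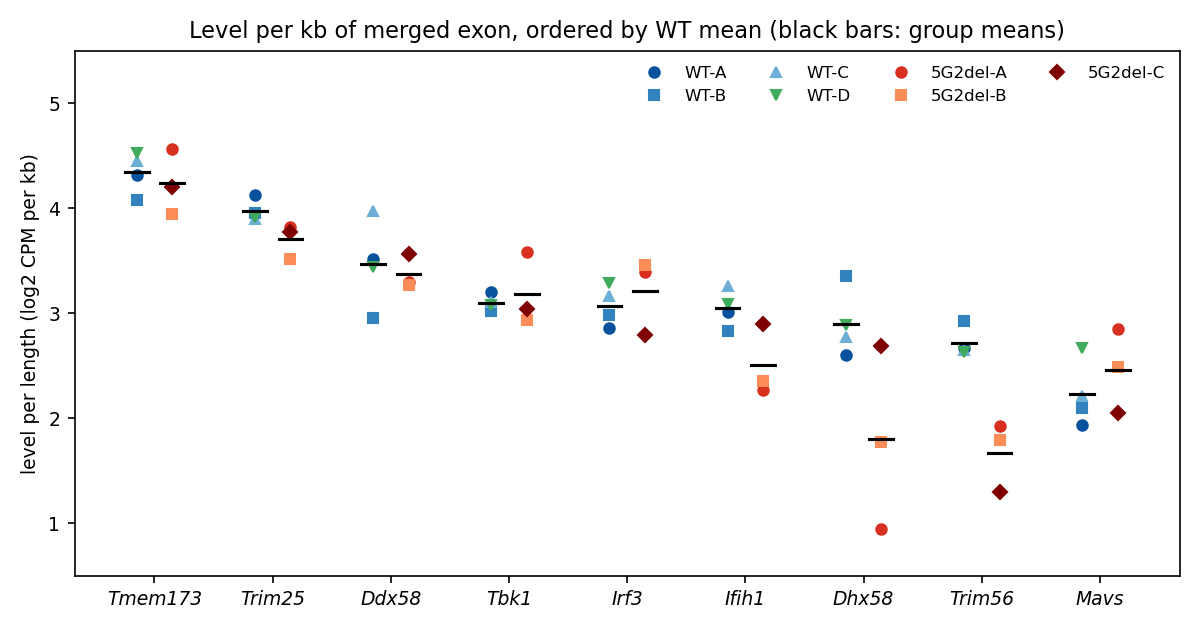
Level per length in log2 CPM per kb of merged exon (y axis) for the 9 genes, ordered by the WT mean, with each library as a point and group means as black bars. Trim56 moves from 2.72 in WT to 1.67 in 5G2del, the lowest group mean among the 9 genes in 5G2del.

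Promoters are shown for the ligase and helicase genes because interferon-induced promoters often hold the core element recognised by IRF factors. RefSeq promoters (GRCm38.p6, 250 bases before to 50 after the start) matched 7 of the 9 members; Dhx58 and Tmem173 were not matched. The IRF core AANNGAAA (both strands) is the 1 pattern kept of 11 that were searched, and it was kept with its matches known and because it takes in both ligase genes, so its presence in these members supports nothing. It was found in 4 of these 7 promoters (Trim56, Trim25, Ddx58 and Ifih1), in 20 of 28 promoters of the interferon-induced readout genes described further on, members left out, and in 23.9% of all 32817 promoters of the same length. Matches are in capitals, and each sequence runs 5′ to 3′ along its gene.
Trim56, chr5:137116158-137116457, minus strand: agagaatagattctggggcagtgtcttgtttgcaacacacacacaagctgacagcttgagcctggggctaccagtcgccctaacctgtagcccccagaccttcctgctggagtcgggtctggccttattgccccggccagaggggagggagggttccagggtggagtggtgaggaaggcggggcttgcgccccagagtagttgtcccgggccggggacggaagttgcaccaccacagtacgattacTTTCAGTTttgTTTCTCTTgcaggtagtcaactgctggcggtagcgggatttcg
Trim25, chr11:88999153-88999452, plus strand: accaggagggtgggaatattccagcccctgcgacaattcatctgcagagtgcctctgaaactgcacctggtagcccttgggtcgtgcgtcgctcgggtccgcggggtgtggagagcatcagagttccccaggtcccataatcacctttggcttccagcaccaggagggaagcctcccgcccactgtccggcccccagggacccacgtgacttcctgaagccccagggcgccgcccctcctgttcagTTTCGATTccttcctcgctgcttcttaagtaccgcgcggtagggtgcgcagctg
Ddx58, chr4:40239776-40240075, minus strand: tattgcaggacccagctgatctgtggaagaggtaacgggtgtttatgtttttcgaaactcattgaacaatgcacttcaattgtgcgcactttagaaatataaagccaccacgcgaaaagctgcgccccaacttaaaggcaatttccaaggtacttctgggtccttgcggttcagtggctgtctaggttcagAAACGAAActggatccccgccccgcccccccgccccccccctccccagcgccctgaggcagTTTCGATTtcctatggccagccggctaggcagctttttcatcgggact
Ifih1, chr2:62646206-62646505, minus strand: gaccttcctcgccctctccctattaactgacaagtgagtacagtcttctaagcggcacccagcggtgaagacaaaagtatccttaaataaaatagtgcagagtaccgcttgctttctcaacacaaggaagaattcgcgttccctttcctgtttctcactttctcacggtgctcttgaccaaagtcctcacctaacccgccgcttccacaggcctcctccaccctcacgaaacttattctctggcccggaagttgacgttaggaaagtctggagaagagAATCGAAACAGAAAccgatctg
In Trim56 both matches lay on the opposite strand at the start of transcription, at bases -4 to 4 and 8 to 15 from the start, and the match of Trim25 also spanned bases -4 to 4. Ddx58 had a match at bases -59 to -52 and another at 3 to 10. In Ifih1 the matches overlapped, at bases 29 to 36 and 35 to 42 on the gene's own strand. The 4 genes with a match had differences from -1.05 for Trim56 to -0.09 for Ddx58. The groups were separate for Trim56 and Trim25 and overlapped for Ddx58 and Ifih1. These are letter matches, and no binding was measured. Of the 10 patterns not kept, GAAANNGAA matched 3 of the 7 promoters (8.55% of all promoters), TTCNNNGAA 0 (8.29%), GGGCGG 5 (35.6%), TATAAA 1 (13.6%) and CCAAT 1 (37.4%), some of the first overlapping AANNGAAA. The other 5 were patterns of the interferon-response type with 10 or 11 letters and matched between 0 and 4 of the 7, the 4 coming from a form shaped after the promoters of Trim56 and Trim25 had been read.

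The rest of the pathway was read from lists of genes. These lists were chosen with earlier results of these data known, so their counts are descriptions and not independent support. Genes of DNA sensing and STING regulation had 16 of 38 listed members lower and 22 higher, with a median of 0.04, and the median turned to -0.08 with mitochondrially encoded genes out of the library totals, a scaling that moved the median of all genes from 0.03 to -0.08. In that list 1 of 38 genes was lower at an unadjusted p under 0.05, where 2.24% of all genes were. This was Ifi203, an interferon-inducible protein of the AIM2-like receptor family, at -0.50 ± 0.21 (-0.31 without WT-C). Cgas, the DNA sensor upstream of STING, fell outside the naming rule and is given for its role. It measured 4.66, 5.02 and 4.38 log2 CPM from 5G2del-A to 5G2del-C and 3.86, 4.55, 3.99 and 4.81 in WT-A to WT-D, a difference of 0.38 ± 0.27 with overlapping groups.

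Regulators of the RNA helicases had 22 of 49 members lower and a median of 0.02 (-0.09 with the mitochondrial genes out of the totals). Lower at an unadjusted p under 0.05 were 2 of the 49, where 2.24% of all genes were. These were Nlrc5, a NOD-like receptor and activator of MHC class I genes, at -0.51 ± 0.17 without overlap, and Ddx60, an interferon-induced helicase, at -0.66 ± 0.29 (-0.42 without 5G2del-B). Genes of TBK1 and IRF3 signalling had 29 of 49 members lower and a median of -0.06. Traf3, an adaptor shared by the MAVS and Toll-like receptor routes, was higher at 0.45 ± 0.19 without overlap, and Irf2, a repressor of interferon genes, was lower at -0.35 ± 0.16, also without overlap. Of all genes, 2.92% were higher and 2.78% lower without overlap. Irf7, the inducible partner of Irf3, was at -0.87 ± 0.42 with overlapping groups.

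Endosomal Toll-like receptors and their adaptors had 10 of 19 members lower, 0 at an unadjusted p under 0.05 in limma-trend, and a median of -0.03. Genes that remove or edit nucleic acids had 14 of 22 members higher (median 0.06; -0.05 with the mitochondrial genes out of the totals). Rnaseh2c, a subunit of ribonuclease H2, and Adarb1, an RNA-editing deaminase, were both higher without overlap of the groups, at 0.69 ± 0.28 and 0.69 ± 0.29. Their unadjusted p-values in limma-trend were 0.0309 and 0.0353, and Adar, the interferon-inducible editing enzyme, lay the other way at -0.34 ± 0.18 with overlap. Of all genes, 1.68% were higher at an unadjusted p under 0.05, and 2.92% were higher without overlap. Adjusted p was 0.989 for each gene named from these lists. With 1 library left out, the count at an unadjusted p under 0.05 ran from 0 to 1 lower genes for DNA sensing, 0 to 4 for helicase regulation and 0 to 3 for TBK1 and IRF3 signalling, and from 0 to 3 higher genes for removal and editing, so each of these small counts turned on single libraries.

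Genes downstream of the pathway, in lists likewise chosen with earlier results known, mostly had lower means in 5G2del. RNA-activated antiviral enzymes had 17 of 18 members lower and a median of -0.45, with 4 at an unadjusted p under 0.05. These were the oligoadenylate synthetases Oas2 (-1.13 ± 0.35) and Oas3 (-0.76 ± 0.23), both without overlap, and the RNA-binding proteins Ifit1 (-0.74 ± 0.29) and Ifit3 (-1.54 ± 0.67). Ifit3 did not pass the filter at mean log2 CPM over 2. Its difference was -0.87 without 5G2del-B and -1.06 as log2(CPM + 1). The count of 4, where 2.24% of all genes had such a p with a lower mean, was 2 without 5G2del-B, WT-C or WT-D, 2 without the variance trend and 7 without WT-A. The type I interferon receptor and its signalling genes had 19 of 22 members lower (median -0.17). Of 39 interferon-induced readout genes, 36 were lower, 12 of them at an unadjusted p under 0.05, with a median of -0.46; this list shares genes with the former ones and holds 4 of the 9 members. The count of 12, read against the same 2.24%, was 5 without 5G2del-B, 6 without WT-C, 7 without WT-D, 8 without 5G2del-A, 16 without 5G2del-C, 18 without WT-B and 6 without the variance trend. The list's median stayed below 0 in each of these fits, from -0.61 without WT-B to -0.32 without WT-C. With the 4 members taken out of the list, 32 of 35 genes were lower, with a median of -0.46. Of these, 10 had an unadjusted p under 0.05 in limma-trend, a count that ran from 4 to 16 with 1 library left out. Of the 18 interferon genes looked for as ligands, 0 were among the listed genes. Beside these medians, that of all genes was 0.03, and 0 genes of any list passed the adjusted threshold in limma-trend.

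**Figure D4:**
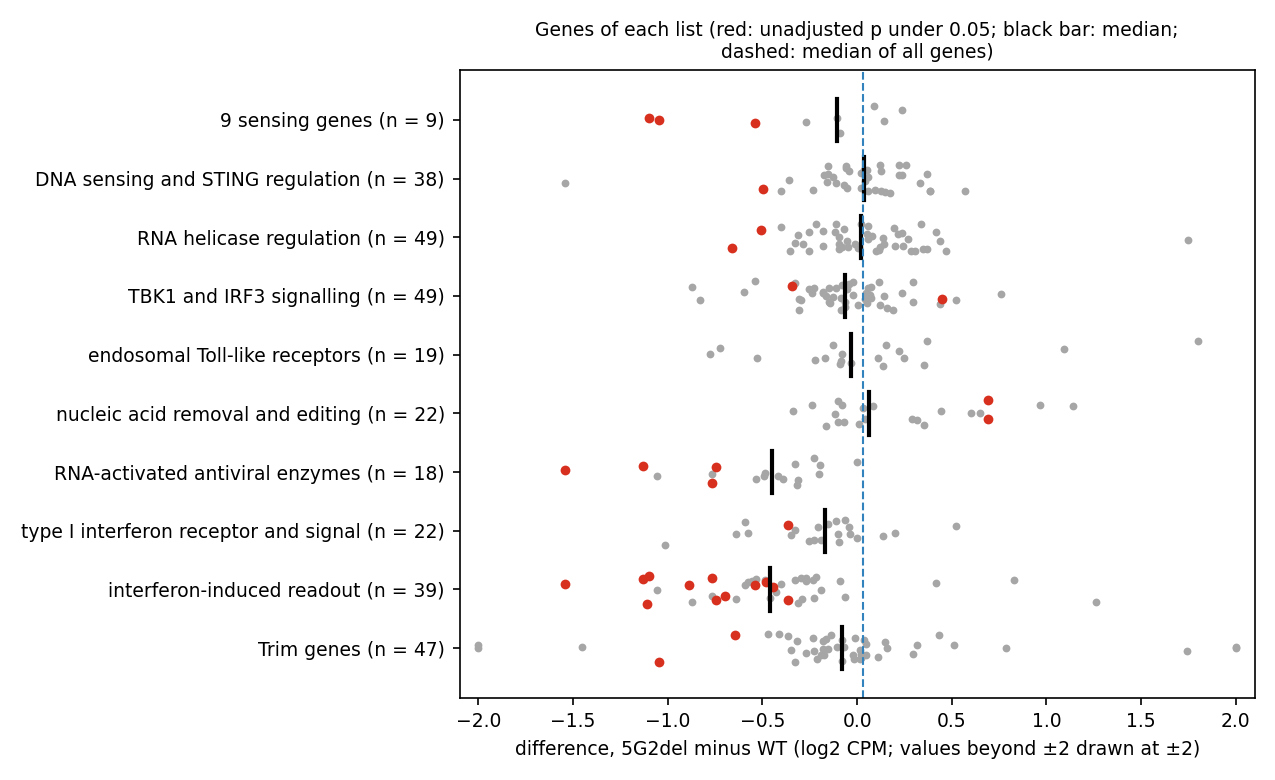
Difference of 5G2del minus WT in log2 CPM (x axis) for each gene of the pathway lists (rows), red where the unadjusted p was under 0.05, with each list's median as a black bar and the median of all genes (0.03) dashed; 4 points beyond ±2 are drawn at ±2. The antiviral enzymes and the interferon-induced readout have medians of -0.45 and -0.46, while the DNA sensing, helicase regulation and Toll-like receptor lists lie near 0.

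The interferon-induced genes other than the members gave each library a level to set beside the members. Their mean was 3.85, 3.59 and 4.17 log2 CPM from 5G2del-A to 5G2del-C and 4.07, 3.68, 4.90 and 4.60 in WT-A to WT-D. WT-A and WT-B thus lay within the range of the 5G2del libraries, and WT-C and WT-D above it. Ddx58 was likewise lowest in WT-B and highest in WT-C, but Trim56 and Dhx58 were highest in WT-B. Without WT-B the difference of Trim56 was -0.98, that of Dhx58 -0.95 and that of Ifih1 -0.61. WT-B had 1104 genes at 0 counts, the most of any library. The mean of the Trim family genes other than the members was also lowest there, at 2.57 against 3.23 to 3.30 in the other WT libraries. How far genes at 0 counts lowered the WT-B means was not tested.

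Among genes named Trim with a number, which encode a large family of mostly RING-type ubiquitin ligases, Trim56 had the lowest difference of the 34 with a mean log2 CPM over 2. The next was Trim12c, at -0.65 ± 0.21 without overlap of the groups (limma-trend unadjusted p = 0.00956, adjusted p = 0.989). Trim12c measured 4.75, 4.32 and 4.60 log2 CPM from 5G2del-A to 5G2del-C and 5.18, 4.84, 5.51 and 5.30 in WT-A to WT-D, and it has near-identical neighbours, so its counts are uncertain. Of the 45 family members other than Trim56 and Trim25, 27 were lower and 18 higher, with a median of -0.08. At an unadjusted p under 0.05, 1 of the 45 was lower, where 2.24% of all genes were. Groups did not overlap for 2 lower and 1 higher of the 45, where 2.78% and 2.92% of all genes did so. At the upper end of the expressed family stood Trim47 at 0.51 ± 0.27.

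On its chromosome, the listed genes next to Trim56 were Ap1s1, a subunit of a clathrin adaptor, and the processed pseudogene Gm20768. Ap1s1 was at -0.71 ± 0.34 with overlapping groups, and Gm20768, with 5 to 28 expected counts per library, at -0.71 ± 0.99. By root mean square distance over the 7 libraries, after each gene's own mean was subtracted, the genes most like Trim56 among 10357 were Gm26981 (0.165 log2), Nhsl1 (0.190), Slx4ip (0.196), 2810408A11Rik (0.197) and 3830406C13Rik (0.206). They lie on chromosomes 7, 10, 2, 11 and 14. Trim25 stood at rank 762 by this measure, Ifih1 at 1125 and Dhx58 at 5570.

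Libraries differed in ways that bear on these values. Total expected counts ran from 37930174 in WT-B to 52194274 in WT-A, and WT-B had 1104 genes at 0 counts, against 83 to 492 in the others. Stem and progenitor markers were present in all libraries, 15 of 15 listed, with a summed level of 2470 to 2678 CPM in 5G2del and 2487 to 2917 in WT. Slamf1, the gene of CD150, was at 0.40 to 0.65 log2 CPM in 5G2del and -2.22 to -0.26 in WT, from only 7 to 66 expected counts per library. Its difference was 1.66 ± 0.75 (limma-trend unadjusted p = 0.0504, adjusted p = 0.989), and 2.92% of all genes were higher without overlap. Cd48, which marks more mature progenitors, was at 4.94, 4.01 and 4.79 log2 CPM against 4.58, 2.52, 3.72 and 3.53 in WT-A to WT-D, a difference of 0.99 ± 0.42 with overlapping groups (limma-trend unadjusted p = 0.0372, adjusted p = 0.989), and Ly6a (Sca-1) differed by -0.42 ± 0.31. Mitochondrially encoded genes took 25.1% to 29.9% of the expected counts in 5G2del and 27.7% to 35.9% in WT. Mature neutrophil and monocyte markers had a higher mean in 11 of 11 listed genes, 0 of them at an unadjusted p under 0.05 in limma-trend. They were at 209 to 1656 CPM in 5G2del, the top value from 5G2del-A, against 167 to 557 in WT. Erythroid markers had a lower mean in 13 of 13, 0 of them at such a p, at 51.6 to 178 CPM against 94.6 to 387. Plasmacytoid dendritic cell markers, of cells rich in interferon sensors, had 6 of 10 names listed, without Siglech, at 118 to 159 CPM against 125 to 172. B lineage markers had 7 of 11 names listed, at 60.9 to 569 CPM against 33.5 to 137. Of these 7, 6 had a higher mean, 2 of them at an unadjusted p under 0.05, against 1.68% of all genes. T and NK markers had 4 of 11 listed, at 12.4 to 15.5 CPM against 15.3 to 22.3. Of these 4, 3 were lower, 1 of them at such a p, against 2.24% of all genes. Macrophage and conventional dendritic markers had 7 of 11 listed, at 186 to 312 CPM against 195 to 369, with 4 lower and 0 at such a p. The part of these cell types in the differences of the 9 members was not tested. In such bulk samples, fewer cells of a type and less RNA per cell cannot be told apart.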

How the data were processed

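The values analysed were log2 CPM in 1 table deposited by the authors, with 1 column per library and, for each of 16760 genes, their q-value, p-value, moderated score and log2 fold change. The tools named in the submitters' processing notes are limma 3.50.3, RSEM 1.3.0 and STAR 2.7.9a, with the builds mm10 and GRCh38; annotation, low-count filter and scaling: not given in the sources used here. RSEM shares reads among similar genes, so values of paralogs are uncertain. Expected counts were recovered from the log2 CPM with an offset of 0.5 count; a voom fit on them matched the deposited fold changes to within 8.57e-14 on the log2 scale. They were used for depth, mitochondrial shares, that fit, log2(CPM + 1) and the totals without mitochondrially encoded genes. The library sizes behind the CPM were not plain totals. They were 41220903 in 5G2del-C and 34865420 in WT-C, below the listed counts of 47664360 and 42038974, and above the listed counts in the other libraries. These sizes are the library totals from which mitochondrially encoded counts were taken out.

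5G2del (3 libraries) was compared with WT (4 libraries) by limma-trend (limma 3.58.1, R 4.3.3) over all genes, with a Benjamini-Hochberg threshold of 0.05. The fit was also run on simulated data with independent noise per gene. Those data hold no effects shared within a library, so they cannot show how the fit handles such effects. The lists carry no set test. Members and lists were chosen with earlier results of these data known. Named are all members, list genes at an unadjusted p under 0.05 or at the ends of a list (up to 6 a list), Trim56's neighbours and the 5 genes most like it. Alternatives were no trend, voom, quantile normalization, median centring, totals without mitochondrially encoded genes, log2(CPM + 1), a filter at mean log2 CPM 2, and leaving out each library. Positions came from GENCODE M21 (mm10) by gene identifier.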

Additional observations from a re-analysis of the deposited data

Results flagged for a closer look

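In 3 of the 44 WT groups examined, 1 library lay far from the other 3 for its gene, by Dixon's ratio of gap to range at the 95% critical value for 4 samples; chance gives about 1 in 20, and in each case the library was WT-B. Trim56 had a ratio of 0.867, with WT-B at 6.14 log2 CPM and the others at 5.84 to 5.88. For Tlr7, an endosomal receptor of single-stranded RNA, the ratio was 0.884, with WT-B at -1.42 and the others at 3.80 to 4.48. For Oasl1, an oligoadenylate synthetase-like protein, it was 0.900, with WT-B at 1.66 and the others at 3.29 to 3.47.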

How the results depend on the processing

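The difference of Trim56 stayed lower in 5G2del under all 14 alternatives run, from -0.86 to -1.18 with 1 library left out and from -1.02 to -1.16 in the others, with its rank by p between 1 and 36; its adjusted p missed the threshold throughout. Trim25 (-0.33 to -0.18 with 1 library left out), Ifih1 (-0.73 to -0.42), Dhx58 (-1.54 to -0.67), Irf3 (0.02 to 0.35) and Mavs (0.04 to 0.44) also kept their sign. The sign turned for Tmem173 (range -0.27 to 0.040, the latter without 5G2del-B), Tbk1 (-0.11 without 5G2del-A, 0.21 without 5G2del-B, -0.025 with mitochondrially encoded genes out of the totals) and Ddx58 (-0.26 to 0.078, the latter without WT-C); the cause was not tested. Members at an unadjusted p under 0.05 numbered 3 in all but 2 alternatives, 1 without 5G2del-A and 2 without 5G2del-B. Trim56 minus Trim25 ran from -0.93 to -0.55 with 1 library left out, where so few arrangements remain that the exact permutation p cannot pass (0.0667 to 0.1). Of the 4 other alternatives, it passed with quantile normalization (-0.80) and log2(CPM + 1) (-0.76). Median centring and totals without mitochondrially encoded genes shift both genes of a library alike, so the value (-0.78) could not change there. Over all genes, limma called 1 gene without the trend and between 0 and 1 with 1 library left out. Of 35 other named genes, 33 kept their sign; Zbp1 ran from -0.87 to 0.015 with 1 library left out, turning without WT-D, and Tlr7 from -1.06 to 1.05, turning without WT-B and without 5G2del-A. No paired analysis was possible because the columns of the table carry no replicate numbers of the labels. Counts of 3 or fewer correspond to at most 0.0860 CPM, far under every member.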
